A study of Arabidopsis thaliana with 4 samples.

Results

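AUR1 (AT4G32830) and AUR2 (AT2G25880) encode the alpha Aurora kinases of Arabidopsis thaliana, and their transcripts mark dividing cells. They were found as the probe sets that carry 1 gene name in the probe annotation of the array and the symbol AUR1 or AUR2. Each gene had 1 such probe set, so the members are 2 of 22746 probe sets other than controls, of which 13513 carried 1 gene name. Whole seedlings, 1 week old, had been profiled on 4 ATH1 arrays. The wild type, Col-0, gave 2 of them, and the exo70A1-2 mutant, whose strain label is also Col-0, gave the other 2. Both genotypes had been grown upright on agar at 22 °C in constant light, after 3 days of cold for the seed, and no treatment set them apart. EXO70A1 encodes a subunit of the exocyst, which tethers secretory vesicles to the plasma membrane, and the design asks which transcripts differ in level when it is mutated. The labels describe the mutant only as an exo70A1 mutant with this allele name. They leave unsaid whether replicate arrays stem from separate cultures, and the spread between replicates may therefore be technical.

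Aurora kinases are serine/threonine kinases that act in mitosis. In plants the alpha group, AUR1 and AUR2, sits on the spindle microtubules and later at the forming cell plate, and is known for its part in the orientation of formative divisions. The beta group, AUR3, sits on the chromosomes and centromeres. Transcripts of Aurora genes accumulate around the G2 to M transition, so in a whole seedling they come mainly from the meristems, young leaves and the stomatal lineage. In such bulk RNA, fewer dividing cells and less Aurora RNA per dividing cell cannot be told apart.

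The signal is a MAS5 value on a linear scale that the authors had scaled to the same trimmed mean, 100, on every array. Array medians ran from 37.3 to 38.8, and log2 signals of the 2 Col-0 arrays correlated at 0.98, and those of the 2 mutant arrays at 0.987, across the 13648 probe sets tested, which are not independent replicates. PYK10, a beta-glucosidase gene of roots, stood at 4530 ± 32.6 in Col-0 (mean ± SD, n = 2 arrays here and below). The leaf gene RCA, which encodes Rubisco activase, stood at 5240 ± 467. The other tested root genes were dimmer in Col-0, with NAI2 at 862 ± 101, EXPA18 at 56.8 ± 10.6 and EXPA7 at 55.3 ± 7.57. EXO70A1 itself had no named probe set, and the genotype labels are unchecked by it. Between the genotypes 16% of the tested probe sets passed an adjusted p of 0.05 (limma with Benjamini-Hochberg adjustment), 8.54% higher and 7.5% lower in exo70A1-2. Without exo70A1-2 replicate 2 this share was 6.89%.

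Neither Aurora gene passed the test between genotypes, although both had their lower signals in exo70A1-2. For AUR1 the log2 fold change, exo70A1-2 minus Col-0, was -0.26 with a standard error of 0.14. For AUR2 it was -0.51 with a standard error of 0.18. In linear terms the fitted signal in the mutant was 0.838 of that in Col-0 for AUR1 and 0.702 for AUR2.

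AUR1 gave a signal of 119 on Col-0 replicate 1, 135 on Col-0 replicate 2, 108 on exo70A1-2 replicate 1 and 104 on exo70A1-2 replicate 2. Both mutant arrays lay below both Col-0 arrays. The gap between the nearest arrays of the genotypes, at 108 and 119, was no wider than that between the Col-0 arrays, at 119 and 135. The means were 127 ± 11.6 in Col-0 and 106 ± 2.18 in exo70A1-2. The 95% interval of the log2 fold change ran from -0.58 to 0.07, or from 0.67 to 1.05 as a linear ratio, so it takes in no difference as well as a mutant signal of 0.67 of the Col-0 signal. The adjusted p was 0.255 (limma).

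AUR2 gave a signal of 68.3 on Col-0 replicate 1, 67.7 on Col-0 replicate 2, 53.7 on exo70A1-2 replicate 1 and 42.4 on exo70A1-2 replicate 2. The Col-0 arrays were nearly equal, both mutant arrays lay below them, and the mutant arrays differed from each other almost as much as the higher of them differed from Col-0. The means were 68 ± 0.409 in Col-0 and 48 ± 8.02 in exo70A1-2. The 95% interval of the log2 fold change ran from -0.92 to -0.10, that is from 0.528 to 0.932 of the Col-0 signal. This unadjusted interval lay below 0, while the adjusted p of 0.0896 (limma) missed the threshold. An unadjusted p under 0.05 was found for 31.4% of the tested probe sets, and 22.6% had a smaller p than AUR2.

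**Figure D1:**
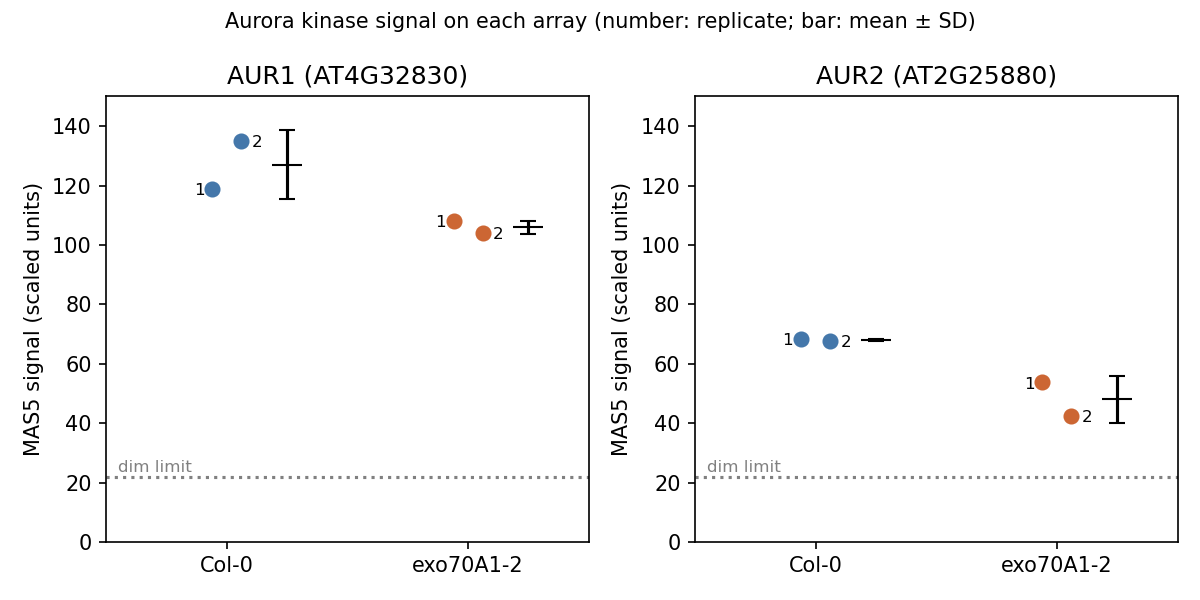
Signal of AUR1 (left) and AUR2 (right) on each array, on a linear axis in scaled MAS5 units, with Col-0 in blue, exo70A1-2 in orange, the replicate number beside each point and the mean ± SD of the 2 arrays in black. AUR1 went from 104 to 135 and AUR2 from 42.4 to 68.3, in each panel with both mutant arrays below both Col-0 arrays and all 4 above the dotted dim limit of 21.9.

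Such a separation of the arrays is common in this comparison. Both mutant arrays lay below both Col-0 arrays for 30.6% of the tested probe sets, and above them for 30%. The size of the log2 fold change exceeded that of 52.1% of the tested probe sets for AUR1 and of 80.8% for AUR2. AUR1 was therefore close to the middle of all tested probe sets in size of difference, while AUR2 was in the upper part.

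Taken array by array, each mutant array was lower than each Col-0 array for both genes. For AUR1 the log2 difference was -0.14 and -0.33 for exo70A1-2 replicate 1 against Col-0 replicates 1 and 2, and -0.18 and -0.37 for exo70A1-2 replicate 2. The Col-0 array chosen mattered more for AUR1 than the mutant array, since Col-0 replicate 2 was the brighter. For AUR2 the differences were -0.35 and -0.33 for exo70A1-2 replicate 1, and -0.69 and -0.68 for exo70A1-2 replicate 2. Here the mutant array mattered and the Col-0 array hardly did. The median log2 difference of all tested probe sets stayed between -0.02 and 0.01 in these pairs.

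Single arrays moved both estimates. Without Col-0 replicate 2 the log2 fold change of AUR1 was -0.16, and without exo70A1-2 replicate 2 that of AUR2 was -0.34 (adjusted p = 0.523, limma). Without exo70A1-2 replicate 1 the value for AUR2 was -0.68 (adjusted p = 0.0923).

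Whether the 2 kinases differed by unequal amounts was examined through their log2 ratio on each array. AUR2 minus AUR1 was -0.80 and -0.996 on the Col-0 arrays and -1.002 and -1.30 on the exo70A1-2 arrays. Only the change of this ratio between genotypes has a meaning, since different probes do not share a scale. The ratio averaged -0.90 ± 0.14 over the Col-0 arrays and -1.15 ± 0.21 over the mutant arrays, a difference of -0.26 (two-sided exact permutation test over 4 arrays, p = 0.333, the smallest this design allows). This test could not have passed in this design, and it does not say whether the kinases differed by unequal amounts.

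The annotation adds some limits to these values. AUR2 has 4 RefSeq transcripts and AUR1 has 1 in assembly TAIR10.1, and a single probe set per gene does not separate isoforms. AUR1 and AUR2 are close paralogs, and how far each probe set would also bind the other transcript was not tested. AUR1 lies on chromosome 4 and AUR2 on chromosome 2. Beside AUR2 the next annotated gene on one side, AT2G25870, averaged 263 in Col-0 and 200 in the mutant. Its log2 fold change of -0.39 did not pass either (adjusted p = 0.0668, limma). On the other side AT2G25890 was too dim to be tested, averaging 5.67 over the Col-0 arrays and 12.2 over the mutant arrays, and the genes directly beside AUR1 had no probe set with 1 gene name.

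Of the 6 listed Aurora partners 4 had a probe set with 1 gene name, and 1 of these reached the limit for testing, though narrowly. This was AT4G39630, with a signal of 21.1 and 25.2 on the Col-0 arrays and 22.3 and 21.7 on the exo70A1-2 arrays. The signals of 21.1 and 21.7 were under the dim limit of 21.9. Its arrays overlapped between the genotypes, and its log2 fold change was -0.07 with a standard error of 0.23 (adjusted p = 0.875, limma). AUR3, the beta Aurora kinase gene, stayed below the limit for testing, a mean log2 signal equal to that of 21.9. Its signal was 17.6 and 21.6 on the Col-0 arrays and 24.2 and 23.4 on the exo70A1-2 arrays. Both mutant arrays thus lay above both Col-0 arrays, in the direction opposite to AUR1 and AUR2. In the fit with no filter on dim probe sets its log2 fold change was 0.28 (adjusted p = 0.637, limma). The 95% interval ran from -0.39 to 0.96 and takes in no difference. Whether AUR3 differed from AUR1 or AUR2 in its change was not tested. WYR, which encodes the INCENP-like scaffold of the chromosomal passenger complex, was dimmer still, at 11.3 ± 3.14 in Col-0 and 10.4 ± 0.197 in exo70A1-2. AUR3 and WYR are named here because of their role, after their values had been seen.

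Across the 10 lists of cell division genes, 190 genes were listed, 27 had a probe set with 1 gene name and 13 were tested. None of the 13 passed (limma), against 14.1% of 7213 named genes. An unadjusted p under 0.05 was found for 4 of the 13, beside 31.4% of all tested probe sets. The same share of 31.4% applies to the counts of unadjusted p in each list below. The fitted log2 fold change was below 0 for 10 of the 13, against 49.6% of all named genes tested, and the count was also 10 after quantile normalization and after median scaling. The median was -0.27, against 0.00 for all named genes tested. Without exo70A1-2 replicate 2 the median was -0.13, and without exo70A1-2 replicate 1 it was -0.42. That array, exo70A1-2 replicate 2, was the lowest of the 4 for AUR1, for AUR2 and for 6 of the 13 genes, and it was the lowest for 27.7% of all tested probe sets. None of the 23 listed mitotic cyclins, CDK genes and CDK subunits had a probe set with 1 gene name, so the genes most often used beside the Aurora kinases to mark the G2 to M transition were not analysed here.

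**Figure D2:**
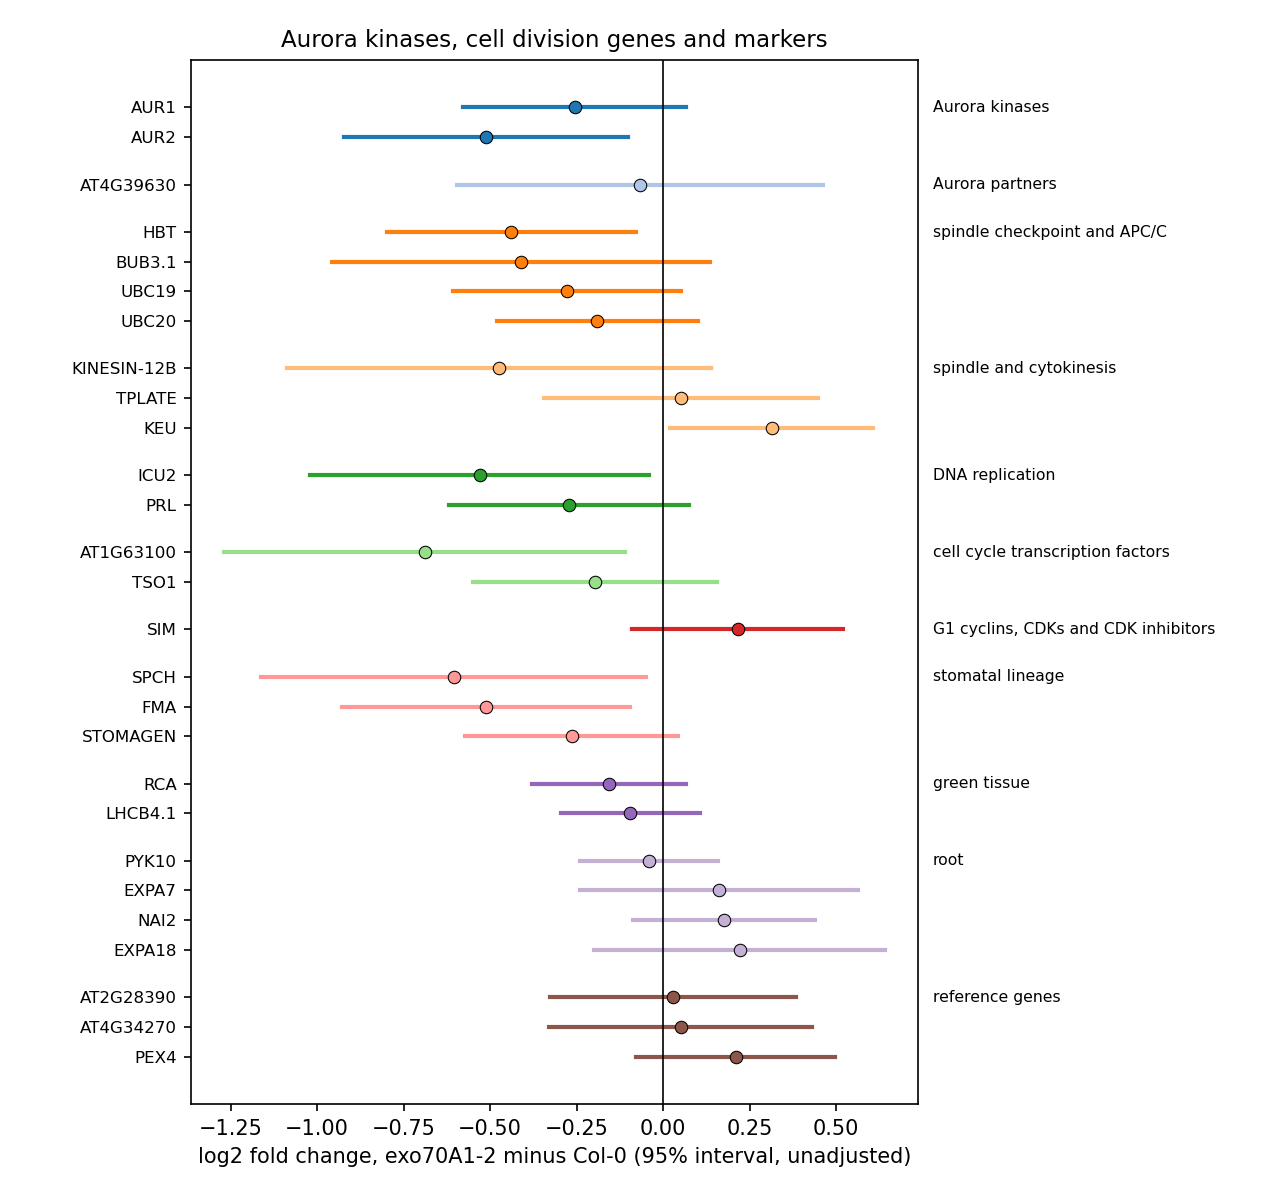
Log2 fold change, exo70A1-2 minus Col-0, with its unadjusted 95% interval (limma), for AUR1, AUR2, the 13 tested cell division genes and the tested markers, coloured by list. AUR1 at -0.26 and AUR2 at -0.51 lie among division genes that reach from -0.69 for AT1G63100 to 0.31 for KEU, and no gene shown passed the adjusted test.

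In the list of the spindle checkpoint and the anaphase-promoting complex, the ubiquitin ligase that ends mitosis, 4 genes were tested and 0 passed (limma, 1 of them with an unadjusted p under 0.05). HBT, which encodes the CDC27b subunit of that complex, gave a signal of 74.9 and 80.9 on the Col-0 arrays and 60.2 and 54.8 on the exo70A1-2 arrays. Its genotypes did not overlap, and its log2 fold change was -0.44 with a standard error of 0.16 (adjusted p = 0.0959). The checkpoint gene BUB3.1 gave 131 and 86.7 in Col-0 and 97 and 66.1 in exo70A1-2. Here the genotypes overlapped, and the log2 fold change of -0.41 had a standard error of 0.24. Single arrays moved it, to -0.11 when Col-0 replicate 1 was left out and to -0.71 (adjusted p = 0.0304, limma) when Col-0 replicate 2 was. Leaving out a mutant array gave -0.69 for replicate 1 and -0.13 for replicate 2. UBC19 and UBC20 encode ubiquitin-conjugating enzymes of the class that serves this complex. Their log2 fold changes were -0.28 and -0.19, UBC20 being named after its value was seen. All 4 genes had a negative value, and the list's median was -0.34.

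Among genes of the spindle and cytokinesis 3 were tested and 0 passed (limma, 1 with an unadjusted p under 0.05), with values on both sides of 0. KINESIN-12B, a motor protein gene of the phragmoplast, which builds the new cell wall, gave 27.5 and 33.6 in Col-0 and 27.1 and 17.7 in exo70A1-2. Its log2 fold change of -0.47 had a standard error of 0.27, and the higher mutant array lay just under the lower Col-0 array. KEU, which encodes the Sec1-type protein needed for vesicle fusion at the cell plate, gave 150 and 155 in Col-0 and 181 and 200 in exo70A1-2. Its log2 fold change of 0.31 (standard error 0.13, adjusted p = 0.136) had the opposite sign to the Aurora genes. TPLATE, an endocytic adaptor gene first described at the cell plate, stood at 0.05.

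Both tested genes of DNA replication had mutant arrays below both Col-0 arrays, against 30.6% of all tested probe sets, and 0 of 2 passed (limma, 1 with an unadjusted p under 0.05). ICU2, which encodes the catalytic subunit of DNA polymerase alpha, gave 40.3 and 32.4 in Col-0 and 24.6 and 25.4 in exo70A1-2. Its log2 fold change was -0.53, with a standard error of 0.21 and an adjusted p of 0.13. PRL, which encodes the MCM7 subunit of the replicative helicase, stood at -0.27 with a standard error of 0.15. Of the 2 tested genes listed as cell cycle transcription factors 0 passed (limma, 1 with an unadjusted p under 0.05). AT1G63100 gave 31.7 and 29.5 in Col-0 and 22.8 and 15.8 in exo70A1-2. Its log2 fold change was -0.69, with a standard error of 0.25 and an adjusted p of 0.102. Its value was the most negative of the 13, and its lower mutant array was under the dim limit. TSO1, which encodes a CXC-domain regulator of division in meristems, stood at -0.20.

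SIM, which encodes a CDK inhibitor that turns trichome cells from mitosis to endoreduplication, was the only tested member of its list. Its signal was 129 and 127 on the Col-0 arrays and 156 and 141 on the exo70A1-2 arrays. Both mutant arrays lay above both Col-0 arrays, with a log2 fold change of 0.22, a standard error of 0.13 and an adjusted p of 0.31 (limma).

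**Figure D3:**
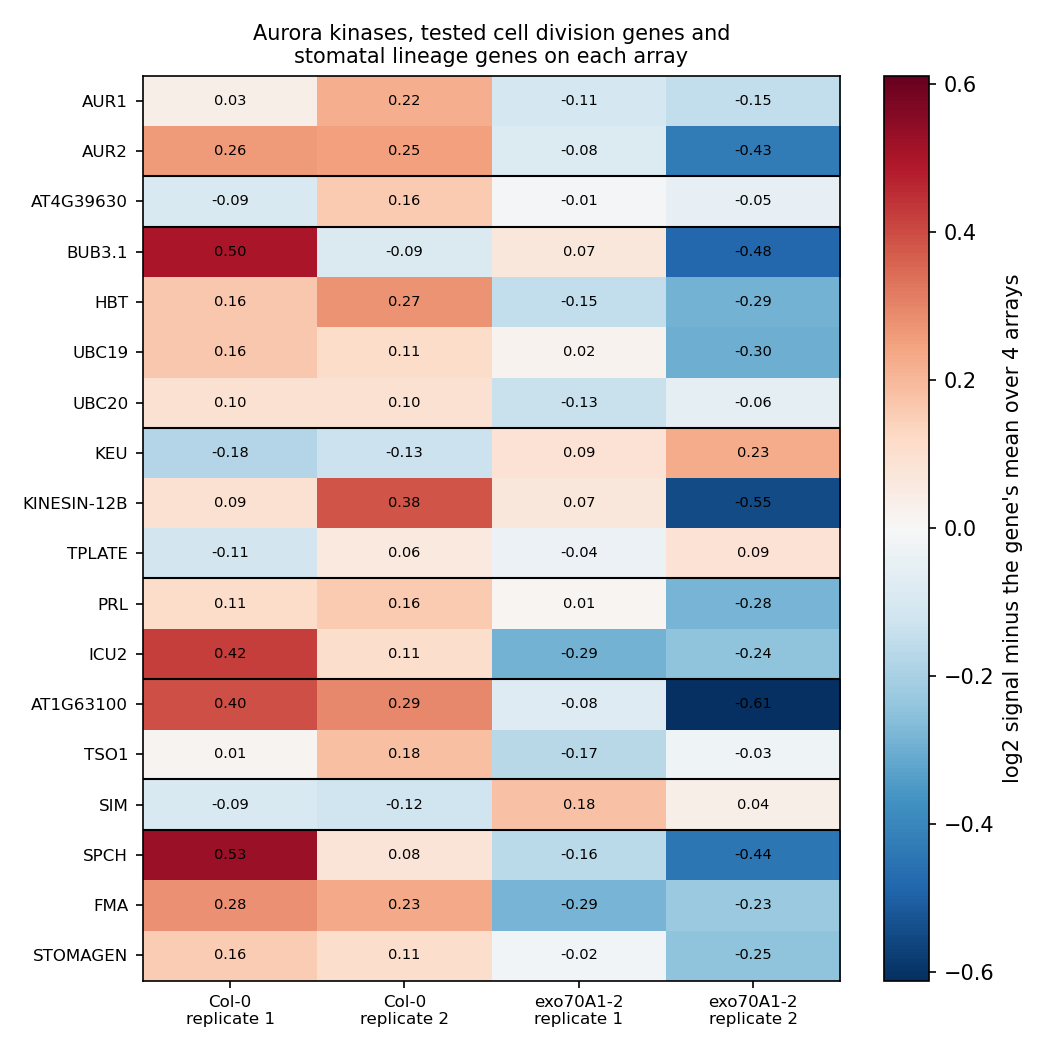
Log2 signal of AUR1, AUR2, the 13 tested cell division genes and 3 genes of the stomatal list on each of the 4 arrays, minus each gene's own mean. Red is above and blue below that mean, with lines between lists. AUR2 stood at 0.26 and 0.25 on the Col-0 arrays and -0.08 and -0.43 on the mutant arrays, and exo70A1-2 replicate 2 also holds the lowest cells of the plot, at -0.61 for AT1G63100 and -0.55 for KINESIN-12B.

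The stomatal lineage is one of the dividing cell populations of a young leaf. The 3 tested genes listed for it had log2 fold changes from -0.61 to -0.26. SPCH, the factor that starts the lineage, gave 38.9 and 28.5 in Col-0 and 24.1 and 19.9 in exo70A1-2. Its lower mutant array was under the dim limit. Its log2 fold change of -0.61 had a standard error of 0.24 (adjusted p = 0.13, limma). It went to -0.38 without Col-0 replicate 1 and to -0.83 without Col-0 replicate 2. FMA (FAMA), the factor of guard cell formation, stood at -0.51 with a standard error of 0.18 (adjusted p = 0.0932, limma). STOMAGEN, a peptide of the mesophyll and not of the lineage itself, stood at -0.26. None passed (limma, 2 with an unadjusted p under 0.05, a share of 31.4% over all tested probe sets). All 3 had both mutant arrays below both Col-0 arrays, as had 30.6% of all tested probe sets. The summed signal of the 4 stomatal genes with a probe set, MUTE included, was 278 to 296 in Col-0 and 209 to 238 in exo70A1-2. Most of this sum was STOMAGEN, at 204 and 197 on the Col-0 arrays and 181 and 154 on the mutant arrays. The part of this lineage in the values of AUR1 and AUR2 was not tested.

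Markers of whole organs had log2 fold changes from -0.16 to 0.22. The green tissue genes were RCA at -0.16 and LHCB4.1, of the photosystem II antenna, at -0.09, with a summed signal of 9320 to 10100 in Col-0 and 8760 to 9000 in exo70A1-2. The 4 root genes had a summed signal of 5470 to 5540 in Col-0 and 5430 to 5560 in the mutant, and a median log2 fold change of 0.17. Their values were -0.04 for PYK10, named after its value was seen, and 0.18 for NAI2, an ER body gene. EXPA7 and EXPA18, expansin genes of root hairs, stood at 0.16 and 0.22. Most of the root sum was PYK10, at 4550 and 4500 on the Col-0 arrays and 4360 and 4440 on the mutant arrays. The 3 reference genes stood at 0.21 for PEX4, 0.05 for AT4G34270 and 0.03 for AT2G28390. None of these 9 genes passed (limma, 0 with an unadjusted p under 0.05), and the part of organ proportions in the Aurora values was not tested.

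The genes whose 4 signals most resembled those of each kinase were found by the Euclidean distance between log2 signals over the 4 arrays, each centred on its gene's mean, among 7300 other tested probe sets with 1 gene name. With 4 arrays and so many probe sets close matches are common, and the distance is only a description. The log2 fold change comes from the same 4 signals, so similar values among the nearest genes follow from the choice. Nearest to AUR1 were AT5G64150, AT5G24710, AT4G32390, AT3G62140 and AT4G32420, at distances of 0.02 to 0.04. Their log2 fold changes lay between -0.27 and -0.24, and none of the 5 passed (limma, 0 with an unadjusted p under 0.05). Of all named genes tested 14.1% passed, and 31.4% of all tested probe sets had an unadjusted p under 0.05. The same shares apply to the genes nearest to AUR2.

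Nearest to AUR2 were AT5G62720, TBL38, AT1G54820, AT1G21440 and AT5G09460, at distances of 0.05 to 0.06. TBL38 belongs to the trichome birefringence-like family, known for acetylation of wall polymers. AT5G62720 had a log2 fold change of -0.51, as AUR2 had, with a standard error of 0.13, and passed at an adjusted p of 0.0288 (limma). AT1G21440, at -0.55 with the same standard error, passed as well (adjusted p = 0.0244). TBL38 at -0.48, AT1G54820 at -0.48 and AT5G09460 at -0.52 had standard errors of 0.15 to 0.17 and did not pass, with adjusted p values of 0.0572 to 0.0979. Calls for profiles of nearly the same size thus differed with the standard error, which in this fit follows a trend with the mean signal. The Aurora genes were not close to each other by this measure. AUR2 ranked at 2471 of 7300 in nearness to AUR1, and AUR1 at 1089 of 7300 in nearness to AUR2, at a distance of 0.36.

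**Figure D4:**
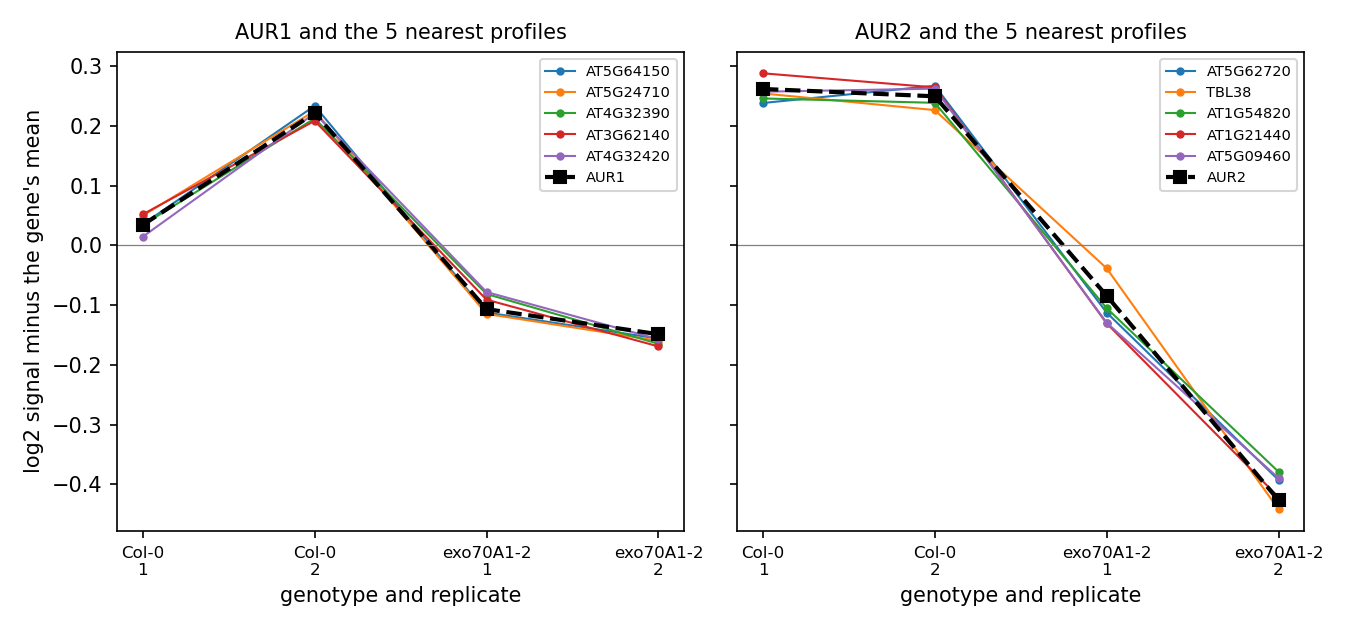
Log2 signal on each array, minus each gene's mean, for AUR1 (left) and AUR2 (right) as black dashed lines and the 5 tested genes with the smallest distance to each in colour, where lines only join the points of a gene. The AUR1 set peaks on Col-0 replicate 2, whereas the AUR2 set is level over the Col-0 arrays and lowest on exo70A1-2 replicate 2, where AUR2 stood at -0.43.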

How the data were processed

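RNA of 4 whole-seedling samples, 2 per genotype as given by the sample titles, had been measured on ATH1 arrays. The deposited values are intensities, 1 for each probe set on each array, made by the authors with MAS5 and GCOS per the submitters' processing notes, whose settings are not given in the sources used here. MAS5 subtracts mismatch probes, which makes low signals noisy, and 4 arrays limit the precision.

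Log2 was taken of these intensities with no constant and no further scaling. The 64 control probe sets were left out. Testing was limited to probe sets whose mean log2 signal reached the 40th percentile, a signal of 21.9, called the dim limit. The fit was limma 3.58.1 in R 4.3.3 (eBayes with an intensity trend, two-sided, 6.66 prior degrees of freedom), with Benjamini-Hochberg adjustment over all 13648 probe sets and a threshold of 0.05, and was tested on simulated data. Of the 22746 probe sets, 503 carried several gene names and 8730 none here. Names were updated through RefSeq (TAIR10.1), which matched 13436.

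The members, the lists and their naming rule (up to 3 tested genes that passed and up to 3 that did not per list, and the 5 nearest profiles) were chosen with earlier results of these data known. Genes in lists are represented by their brightest probe set. Alternatives were other scalings, filters, variance priors, log2 of the signal plus 16, the replicate number as a block and leaving out each array. Figures were drawn with matplotlib 3.10.9. No sequences are shown.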

Additional observations from a re-analysis of the deposited data

How the results depend on the processing

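AUR1 did not pass under any of 12 alternatives, with log2 fold changes from -0.35 to -0.16 and adjusted p values from 0.149 to 0.633 (limma). AUR2 kept its negative sign under all 12, from -0.68 to -0.34, and passed under 1, the replicate number as a block, where its value was -0.51 with an adjusted p of 0.026, against 0.0708 to 0.523 under the other 11. What arrays with equal numbers have in common is not labelled, and the difference of replicates 1 and 2 correlated at 0.28 between the genotypes, so with 2 arrays each the numbers are not taken as pairs. With that block 2168 probe sets were higher and 2098 lower, against 1165 and 1024, and 4 cell division genes passed, BUB3.1, HBT, AT1G63100 and KEU, which is 30.8% of the 13 beside 31.3% of all tested probe sets. Leaving out 1 array gave 549 to 1767 higher and 391 to 1374 lower probe sets and 0 to 1 division genes, the 1 being BUB3.1 without Col-0 replicate 2, and the lone array of a genotype was then assumed to vary like the others. The lowest counts came without exo70A1-2 replicate 2. Without the intensity trend 679 were lower. The cause of these differences was not tested. The AUR2 minus AUR1 difference was between -0.41 and -0.11 under 7 alternatives, none of which could reach the threshold by design. Low signal over background limits AUR3 and the other dim division genes.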

Other observations

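The 14 cell division genes under the dim limit were 3 Aurora partners and 11 genes of other lists. In the fit with no filter none passed, against 7.12% of all probe sets in that fit (limma). An unadjusted p under 0.05 was found for 0 of the 14. The arrays of the genotypes overlapped for 9, and both mutant arrays lay below both Col-0 arrays for 3 and above them for 2. Over all 9098 dim probe sets these shares were 60.3%, 22.8% and 17%. The log2 fold change in the fit with no filter was below 0 for 12 of the 14. In that fit the median was -0.30 over all 27 division genes, bright and dim, against -0.02 over all probe sets. HTR12, which encodes the centromeric histone H3, gave 19.8 ± 8.82 in Col-0 and 16.5 ± 1.61 in exo70A1-2. BUBR1, of the spindle checkpoint, gave 15.2 ± 5.72 and 12 ± 3.01. The 2 with both mutant arrays above were AUR3 and ATSMC2, a condensin gene, whose Col-0 signal of 14.3 ± 2.78 compared with 17.3 ± 1.05 in the mutant. The shoot meristem gene CLV3 and the embryo and root meristem gene BBM had signals under 6 on every array, too low to describe meristem size. MUTE, the stomatal factor between SPCH and FMA, was also under the dim limit, with 5.82 ± 0.583 in Col-0 against 1.58 ± 0.466 in the mutant, and did not pass in that fit (adjusted p = 0.175). These genes were chosen for mention after their values had been seen.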
